A study of Mus musculus with 14 samples.

Results

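Crypt base stem cell markers are 8 genes, Lgr5, Ascl2, Smoc2, Tnfrsf19, Msi1, Prom1, Slc12a2 and Cdca7, known for transcripts that mark the stem cells at the bottom of intestinal crypts. They were followed on every probe set annotated to 1 of these symbols and to no other gene. This gave 16 probe sets for 8 of the 12393 genes on the arrays. Lgr5, Prom1 and Cdca7 had 1 probe set each, Smoc2 and Msi1 had 2 each, and Ascl2, Tnfrsf19 and Slc12a2 had 3 each.

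Mouse small intestine was measured in 4 groups. The adult groups were crypts and villi, 3 arrays each, isolated from C57BL/6 mice 12 weeks of age. The embryonic groups were endoderm and mesenchyme at embryonic day 12 (E12), 4 arrays each, separated by dissection after collagenase digestion, with no strain given. The values come as log2 signals in 2 separately normalized tables, which belong to 2 array platforms with the same probe sets. The 8-array table holds the adult arrays and 1 array of each E12 layer, made from a pool of 35 fetuses. The 6-array table holds the other E12 arrays, 3 per layer, from pools of 10 to 12 fetuses. For the E12 arrays, platform and pool size thus changed together between the tables. Adult samples are titled K12, K21 and K41 for crypts and V12, V41 and V275 for villi. The material was whole crypts and whole layers, so stem cells were a part of each sample and were not sorted. In such bulk samples, fewer cells of a type and less RNA per cell cannot be told apart.

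Crypts are pits in the gut lining where stem cells divide, wedged between Paneth cells, and their progeny divide further up the crypt before they mature on the villus. Stem cells at the base are kept by Wnt signals, which R-spondins amplify through Lgr5 and its relatives, and several of the 8 genes are known targets of that pathway. At E12 the gut is a tube of dividing endoderm inside a layer of mesenchyme, and crypts have not formed.

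The tissue labels were checked against marker lists. Paneth cell markers were higher in crypts than in villi for 6 of 6 genes, and their summed signal on the log2 scale was 15.63 to 15.82 in crypts and 11.19 to 13.58 in villi. Enterocyte markers were lower in crypts for 9 of 9 genes, with sums of 11.42 to 12.58 in crypts and 15.48 to 15.83 in villi. In the 6-array table, epithelial markers were higher in endoderm for 7 of 7 genes and fibroblast markers lower for 8 of 8. The medians of the arrays lay between 6.67 and 6.80 in the 8-array table and between 6.17 and 6.34 in the 6-array table. The 30th percentile, used here as the mark of a dim signal, was 5.78 and 4.74 in these tables. The 8 genes passed the filter on dim signals in each comparison, Lgr5 between the E12 layers only through the endoderm arrays. For Smoc2, V12 was the only villus array above the mark, and sample 4 the only endoderm array above it in the 6-array table. Some further probe sets of the 8 genes passed only through the group where they were high, as given below.

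Promoter windows of 250 bases before the start site were searched for 4 of the 8 genes, Ascl2, Tnfrsf19, Prom1 and Cdca7, in RefSeq sequences of mouse build GRCm38.p6. The letters searched, on both strands, were CTTTGA and CTTTGT (the core bound by TCF and LEF factors of the Wnt pathway), CAGCTG and CACGTG (E-boxes, the first read by many basic helix-loop-helix factors and the second by Myc), and TTTCCCGC and TTTGGCGC (E2F sites). Cdca7 and the second start site of Tnfrsf19 are shown because they held a match. The Cdca7 window lies at chr2:72475969-72476218 on the plus strand, and its capitals mark TTTCCCGC read on the other strand, 71 bases before the start. The Tnfrsf19 window lies at chr14:61037988-61038237 on the minus strand, and its capitals mark, in order, CTTTGA read on the other strand, CACGTG and CAGCTG, which begin 201, 133 and 10 bases before the start. Both are written 5′ to 3′ along the gene.
Cdca7: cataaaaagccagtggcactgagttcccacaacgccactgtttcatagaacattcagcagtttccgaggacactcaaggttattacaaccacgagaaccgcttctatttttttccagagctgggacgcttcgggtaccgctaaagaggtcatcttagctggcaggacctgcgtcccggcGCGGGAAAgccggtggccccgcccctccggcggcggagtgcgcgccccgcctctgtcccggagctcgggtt
Tnfrsf19, the second start site: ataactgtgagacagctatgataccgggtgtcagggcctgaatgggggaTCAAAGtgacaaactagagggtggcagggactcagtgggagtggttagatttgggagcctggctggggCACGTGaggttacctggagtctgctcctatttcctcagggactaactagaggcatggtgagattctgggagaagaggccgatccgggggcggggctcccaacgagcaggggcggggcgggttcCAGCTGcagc
TTTCCCGC was found in 0.895% of 32851 promoter windows of that length, TTTGGCGC in 0.417%, CTTTGA in 13.8%, CTTTGT in 16.5%, CAGCTG in 13% and CACGTG in 6.02%. The windows of Ascl2, of both Prom1 start sites and of the first Tnfrsf19 start site held none of these letters. A match is a description of the sequence and no binding was measured.

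The first comparison asked which of the 8 genes were more abundant in adult crypts than in adult villi. Lgr5, Smoc2, Prom1, Slc12a2 and Cdca7 rose in crypts, by 1.92-fold to 10.1-fold, and for each of these 5 genes the crypt arrays did not overlap with the villus arrays, which held for 47.8% of all genes tested. Ascl2, Tnfrsf19 and Msi1 did not pass the test on the brightest probe set that represented each gene. The test was limma's, with Benjamini-Hochberg adjustment over 9961 genes and a threshold of 0.05. Thus 5 of 8 genes were called higher, against 15% of all genes tested, and 0 were called lower, against 16.9% of all genes. The count of lower genes was also 0 at an unadjusted p under 0.05. The median difference of the 8 genes was 1.17 on the log2 scale, against 0.000902 for all genes tested.

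Lgr5 encodes the R-spondin receptor that defines the crypt base columnar stem cell. Its signal was 9.40, 8.86 and 8.17 in crypts K12, K21 and K41, against 6.35, 6.67 and 6.91 in villi V12, V41 and V275. Every crypt array lay above every villus array, and K41 was the lowest of the crypts. The difference was 2.17 ± 0.31 (SE, n = 3 and 3 arrays) on the log2 scale, or 4.50-fold, with an adjusted p of 0.00202 by limma. Within their arrays, the crypt values lay between the 77.2 and the 93.0 percentile of all probe sets and the villus values between the 40.9 and the 54.6 percentile.

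Smoc2 encodes a secreted calcium-binding matrix protein that is known to be enriched in Lgr5-expressing cells. It read 8.90, 9.27 and 8.73 in crypts K12, K21 and K41, against 6.22, 5.09 and 5.64 in villi V12, V41 and V275. All crypt values were far above all villus values, and 2 of the 3 villus values lay under the dim mark. Smoc2 was higher by 3.31 ± 0.29, or 9.95-fold, with a limma adjusted p of 0.00033. The second probe set of Smoc2 was also called, with a difference of 1.99 (limma adjusted p = 0.00122). Its villus values, 4.89 to 5.19, all lay under the dim mark, so it passed the filter only through the crypts.

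Slc12a2 encodes the sodium-potassium-chloride cotransporter that feeds chloride secretion in crypt cells. Crypts K12, K21 and K41 gave 10.80, 10.79 and 10.20, and villi V12, V41 and V275 gave 8.20, 6.55 and 7.02. The groups were well separated, with V12 the highest of the villi. The difference was 3.34 ± 0.40, or 10.1-fold (limma adjusted p = 0.0010). Its other 2 probe sets were higher in crypts by 3.40 and 2.42, each with a limma adjusted p no higher than 0.00111.

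Prom1 encodes prominin, a membrane protein of protrusions that is known to be present in dividing progenitors above the crypt base as well as in stem cells. Its values were 9.91, 9.94 and 10.16 in crypts K12, K21 and K41, against 9.07, 8.46 and 8.33 in villi V12, V41 and V275. The groups did not overlap, although Prom1 remained bright in villi, at or above the 79.4 percentile of each array. The difference was 1.39 ± 0.21, or 2.61-fold, with a limma adjusted p of 0.00276.

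Cdca7 encodes a zinc finger protein that works with the chromatin remodeller Hells and is known as a target of Myc and E2F in dividing cells. Its values were 8.44, 8.50 and 8.32 in crypts K12, K21 and K41, against 7.63, 7.39 and 7.39 in villi V12, V41 and V275. The spread within each group was small beside the gap between them. The difference was 0.94 ± 0.14, or 1.92-fold (limma adjusted p = 0.00239).

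Ascl2, Msi1 and Tnfrsf19 were the genes whose probe sets disagreed. Ascl2 encodes a basic helix-loop-helix transcription factor that is a Wnt target and is required for the stem cell state. Its brightest probe set, 1460514_s_at, read 7.34, 7.32 and 7.37 in crypts K12, K21 and K41, and 7.35, 7.33 and 7.31 in villi V12, V41 and V275. These values overlapped, and the difference was 0.01 (95% interval -0.27 to 0.30, limma adjusted p = 0.947). The direction of that value changed to -0.022 after quantile normalization and was -0.0016 without K41. The same probe set had an SD of 0.03 in crypts and 0.02 in villi.

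The other 2 Ascl2 probe sets were too dim for the filter. Probe set 1422396_s_at read 4.76, 4.62 and 4.96 in crypts K12, K21 and K41, against 3.81, 3.75 and 3.91 in villi V12, V41 and V275. Probe set 1432018_at read 4.41, 4.55 and 4.19 in those crypts, against 3.66, 3.68 and 3.88 in those villi. On both, every crypt array was above every villus array, at signals no higher than the 16.8 percentile of their arrays. In a fit of all 20380 probe sets without the filter, added after the data were seen, their differences were 0.96 ± 0.13 and 0.64 ± 0.14, with limma adjusted p-values of 0.0031 and 0.0166.

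Msi1 encodes Musashi, an RNA-binding protein of stem and progenitor cells. Its brighter probe set, 1421409_at, read 7.84, 7.95 and 7.40 in crypts K12, K21 and K41, against 7.40, 7.29 and 7.48 in villi V12, V41 and V275. K41 lay inside the villus range, and the difference of 0.34 (95% interval -0.07 to 0.75) had a limma adjusted p of 0.185. Without K41 it was 0.50 (limma adjusted p = 0.0454), and for the median over both Msi1 probe sets it was 0.96 (limma adjusted p = 0.0107). The other probe set, 1452287_at, read 7.14, 7.08 and 6.28 in crypts K12, K21 and K41, against 5.06, 5.24 and 5.48 in villi V12, V41 and V275. There the groups were apart, and the difference was 1.57 ± 0.25, with a limma adjusted p of 0.00369 over 14906 probe sets. Every villus value of this probe set lay under the dim mark. It passed the filter only through the crypts, and its call is a description.

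Tnfrsf19, also known as Troy, encodes a receptor of the tumour necrosis factor family that is found in crypt stem cells as a Wnt target. Its brightest probe set, 1415921_a_at, read 6.64, 6.55 and 6.65 in crypts K12, K21 and K41, against 6.58, 6.61 and 6.70 in villi V12, V41 and V275. The values overlapped, with a difference of -0.02 (95% interval -0.31 to 0.28, limma adjusted p = 0.937), and the sign turned without K21 (0.01) or V275 (0.02). On the dimmer probe set 1448147_at the crypt values of 5.51, 5.94 and 5.35 in K12, K21 and K41 were all above the villus values of 5.22, 5.22 and 5.06 in V12, V41 and V275. That difference of 0.43 ± 0.17 did not pass in the unfiltered fit (limma adjusted p = 0.117). The dim probe set 1425212_a_at differed by 0.24, with overlapping groups and a limma adjusted p of 0.44.

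**Figure D1:**
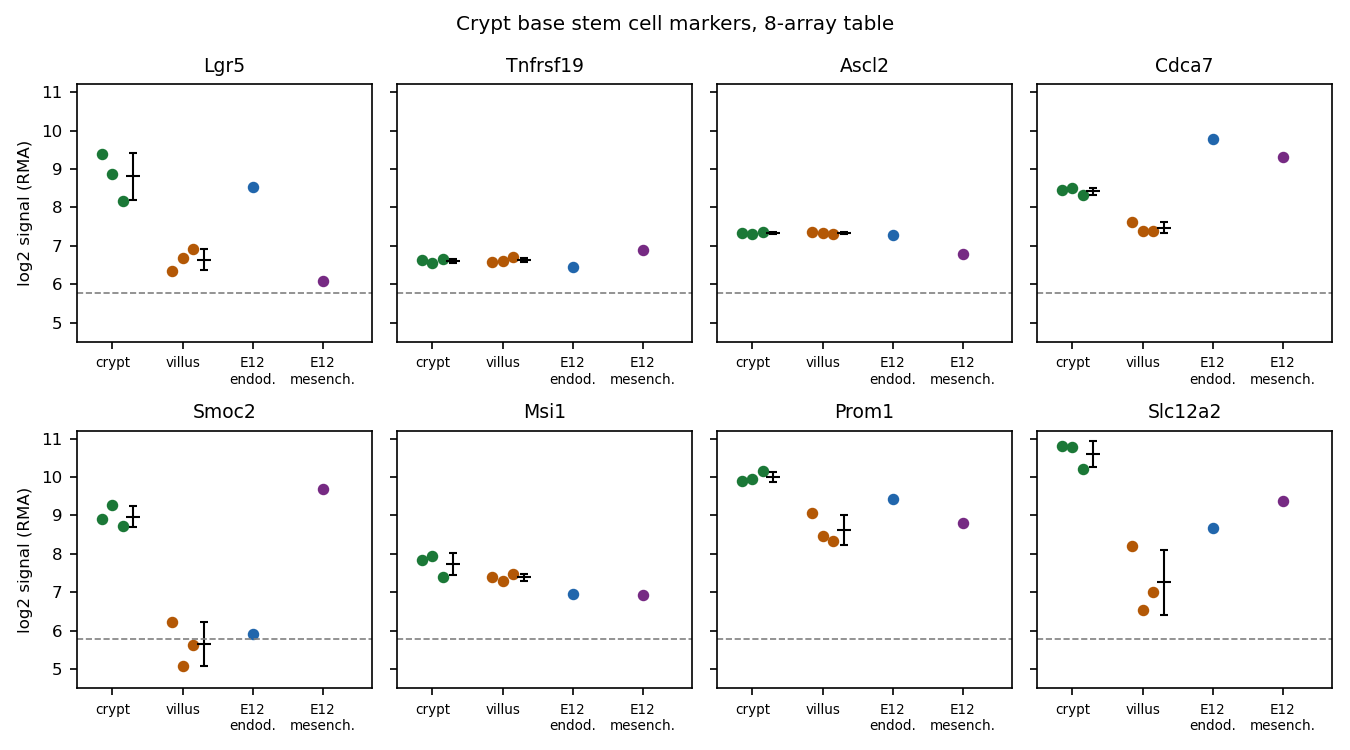
Log2 signal of the brightest probe set of each of the 8 genes in the 8-array table, with 1 point per array in crypts, villi, E12 endoderm and E12 mesenchyme. Bars give the mean and SD of the adult groups (n = 3), the dashed line marks the 30th percentile of the table (5.78), and crypts and villi are apart for Lgr5, Cdca7, Smoc2, Prom1 and Slc12a2.

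Counted over probe sets, 9 of the 12 that passed the filter were higher in crypts, against 15.1% of all probe sets tested, and 0 were lower, against 16.6%. Among the 9, 1452287_at of Msi1 and 1431362_a_at of Smoc2 had every villus value under the dim mark. They passed the filter only through the crypts, so their part in the count is a description. Without the filter the count was 11 of 16, against 11.9% of all probe sets. Probe sets of 1 gene share their transcript and are no independent replicates. The probe sets that rose included at least 1 of every member except Tnfrsf19 in the unfiltered fit.

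**Figure D2:**
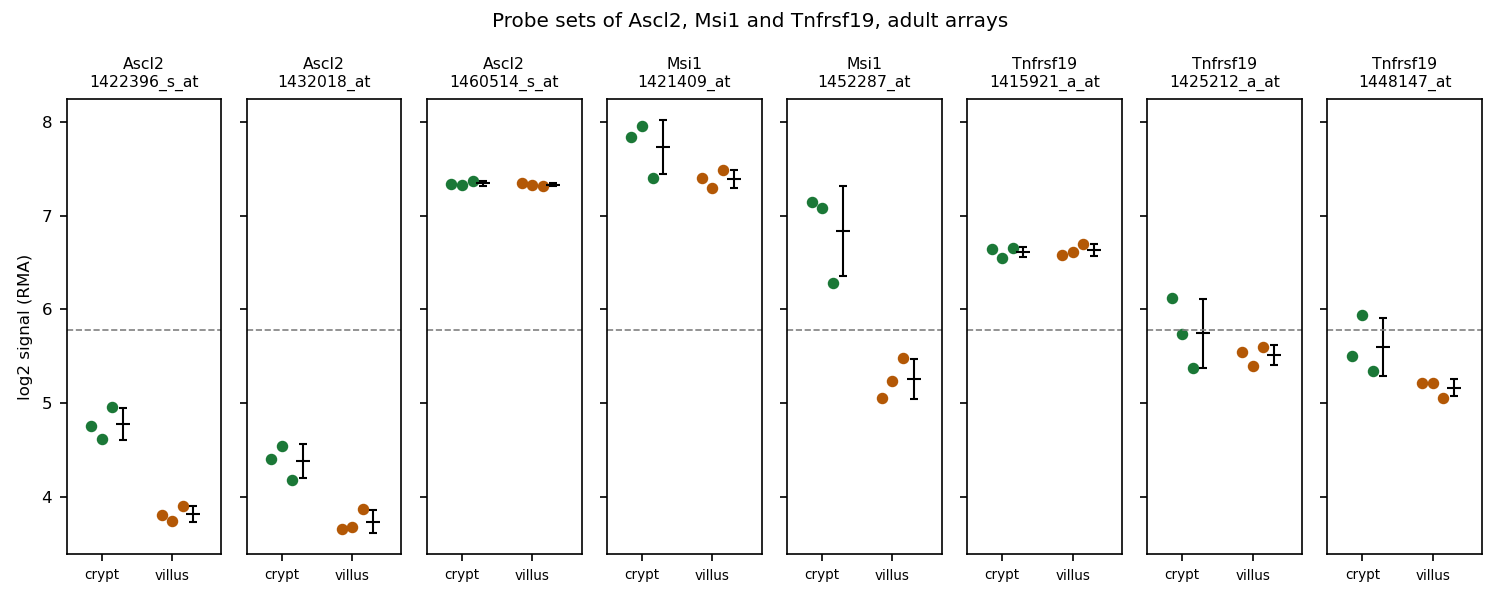
Log2 signal of every probe set of Ascl2, Msi1 and Tnfrsf19 in the adult arrays, with 1 point per array, the mean and SD of each group (n = 3) and a dashed line at the 30th percentile of the table. Crypts and villi coincide on the brightest probe set of Ascl2 and of Tnfrsf19 and separate on the dim probe sets of Ascl2 and on 1452287_at of Msi1.

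Single arrays stood out within groups, across several of the 8 genes. K41 was the lowest crypt for Lgr5, Smoc2, Msi1, Slc12a2 and Cdca7 on the representative probe sets and the highest for Prom1, Ascl2 and Tnfrsf19. Its summed enterocyte signal was 12.58, against 11.42 in K12 and 12.14 in K21, and its summed cell division signal was 12.83, against 12.54 and 12.63. V12 was the highest villus for Smoc2, Prom1, Slc12a2, Cdca7 and Ascl2, and its summed Paneth signal was 13.58, against 11.19 in V41 and 12.20 in V275. Lgr5, in contrast, was lowest in V12. Without V12 the differences of Slc12a2, Smoc2 and Prom1 were 3.81, 3.60 and 1.61, and without K41 that of Lgr5 was 2.49. Other removals lowered them. Slc12a2 and Smoc2 were at 2.99 and 3.04 without V41, Prom1 at 1.24 without V275 and Lgr5 at 1.87 without K12. The part of other cell types in these values was not tested.

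Genes of the same setting were read beside the 8. Of 19 further genes of the stem cell signature, 8 were tested, and 3 rose in crypts, with a median difference of 0.31. Kcne3, a potassium channel subunit, was higher by 3.36 (limma adjusted p = 0.00159) and Mfge8, a secreted glycoprotein, by 0.86 (limma adjusted p = 0.00479). The villus mean of Kcne3, 5.48, lay under the dim mark. The third companion that rose, the water channel Aqp4, was higher by 0.56. Of 8 tested Wnt targets, 6 rose and 1 fell, with a median of 1.42, led by the cyclin Ccnd1 at 2.18 and the transcription factor Sox9 at 1.83 (limma adjusted p = 0.000827 and 0.00186). The target that fell was the transcription factor Sp5, at -0.94, with a crypt mean of 5.53 under the dim mark, and Aqp4 and Sp5 were chosen for mention after their values were seen. Among 6 receptors and regulators of Wnt and R-spondin signals, 0 rose and 1 fell, the Wnt co-receptor Lrp5, at -0.56 (limma adjusted p = 0.0205). At an unadjusted p under 0.05 that list had 3 genes.

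Of 4 genes linked to the position above the crypt base, 2 rose, Hopx by 1.51 and Bmi1 by 0.58 (limma adjusted p = 0.0027 and 0.0279). Cell division genes rose for 13 of 14, with a median of 1.28, and Mki67, the Ki-67 antigen of cycling cells, was higher by 3.59. Summed division signals were 12.54 to 12.83 in crypts and 10.95 to 11.18 in villi. Lymphocyte markers were lower in crypts for 8 of 8 genes, with sums of 9.93 to 10.15 in crypts and 12.21 to 13.45 in villi. The division list thus moved in the direction of the 5 called genes and the lymphocyte list in the opposite direction. The part of these lists in the differences of the 5 genes was not tested.

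The second comparison set adult crypts against E12 endoderm, the epithelium before crypts exist. It used the same crypt arrays as the first comparison, so the results of both are not independent. The endoderm had 1 array in this table, as had the mesenchyme, so the spread in a fit of all 8 arrays came from crypts and villi alone. The p-values of this comparison thus do not measure the variation between pools of fetuses. Smoc2 and Slc12a2 were higher in crypts, Cdca7 was lower, and Lgr5 did not pass the test, with the endoderm pool inside the crypt range. In counts, 2 of 8 genes were called higher, against 8.2% of the 10081 genes tested, and 1 of 8 lower, against 15.1%. The median difference of the 8 genes was 0.43, against 0.05 for all genes tested.

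The matrix protein gene Smoc2, at 8.90, 9.27 and 8.73 in crypts K12, K21 and K41, read 5.92 in the endoderm array. Endoderm thus lay within the villus range for this gene. The difference was 3.05 ± 0.41 (SE, 3 arrays and 1 array), or 8.27-fold, with a limma adjusted p of 0.00229. The second Smoc2 probe set was higher by 2.10. Its endoderm value, 4.97, lay under the dim mark, and it passed the filter only through the crypts and the mesenchyme pool. Its place in the probe set count of this comparison is thus a description.

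The cotransporter gene Slc12a2 read 10.80, 10.79 and 10.20 in crypts and 8.68 in endoderm. The endoderm value lay below all crypts and above all villi. Its difference was 1.92 ± 0.57, or 3.78-fold, with a limma adjusted p of 0.0452. This call was lost without K12, K21 or K41 (adjusted p = 0.114, 0.121 and 0.0556) and with no filter on dim genes (adjusted p = 0.0538). The other 2 probe sets of Slc12a2 gave 2.91 and 2.14, with limma adjusted p-values of 0.011 and 0.00203.

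Cdca7 went the other way. The crypt values of 8.44, 8.50 and 8.32 were all below the endoderm value of 9.79. The difference was -1.37 ± 0.20, or 2.59-fold lower in crypts, with a limma adjusted p of 0.00316. In the same arrays, cell division genes were lower in crypts for 14 of 15, with a median of -1.80 and summed signals of 12.54 to 12.83 in crypts and 14.47 in endoderm. The helicase subunit Mcm6 differed by -2.87 and the checkpoint kinase Bub1 by -2.59. The crypt mean of Bub1, 5.71, lay under the dim mark. The part of the dividing fraction in the Cdca7 difference was not tested.

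Lgr5 read 9.40, 8.86 and 8.17 in crypts and 8.54 in endoderm, inside the crypt range. The difference of 0.27 had a 95% interval of -0.74 to 1.29 and a limma adjusted p of 0.667, so a level over 2-fold higher in crypts lies within its limits. Without K12 it was -0.024. Prom1 read 9.91, 9.94 and 10.16 in crypts and 9.42 in endoderm, a difference of 0.59 (95% interval -0.11 to 1.29, limma adjusted p = 0.193) that passed only after quantile normalization, at 0.96 (adjusted p = 0.0434). That normalization put the median of all genes at 0.11, against 0.05 as deposited.

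The probe sets of Msi1 pointed in opposite directions. On 1421409_at, crypts read 7.84, 7.95 and 7.40 and endoderm 6.95, a difference of 0.78 (95% interval 0.21 to 1.36, limma adjusted p = 0.0571). That value passed without K41, at 0.94 (limma adjusted p = 0.0198), and with a trended, robust prior (limma adjusted p = 0.0479). On 1452287_at, crypts read 7.14, 7.08 and 6.28 and endoderm 7.80, a difference of -0.97 (limma adjusted p = 0.0904). Crypts were above the endoderm array on the first of these and below it on the second, and the median over both was -0.09.

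Tnfrsf19 was likewise divided. The brightest probe set gave 6.64, 6.55 and 6.65 in crypts and 6.46 in endoderm, a difference of 0.15 (limma adjusted p = 0.558). Probe set 1448147_at gave 5.51, 5.94 and 5.35 in crypts and 6.36 in endoderm, a difference of -0.76 (limma adjusted p = 0.0739). Crypts were thus above endoderm on one and below it on the other, neither past the threshold, and the median over the probe sets of the gene gave -0.54. Ascl2 differed by 0.06 (95% interval -0.34 to 0.46, limma adjusted p = 0.824) on its brightest probe set. Its dim probe sets went opposite ways in the unfiltered fit and did not pass, 1422396_s_at at -0.33 and 1432018_at at 0.41 (limma adjusted p = 0.242 and 0.183). Over probe sets, 5 of 13 were higher in crypts, against 7.54% of all tested, and 1 was lower, against 14.5%.

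Of the 8 tested companions of the stem cell signature, 1 rose and 3 fell in crypts, among them the cell cycle kinase Wee1 at -2.31 and the serine synthesis enzyme Phgdh at -1.90 (limma adjusted p = 0.0203 and 0.00466). Among 8 Wnt targets 3 rose and 0 fell, with the adhesion receptor Cd44 at 2.52 and Ccnd1 at 1.49 (limma adjusted p = 0.00263 and 0.0206). Of 6 Wnt and R-spondin receptors and regulators 1 fell, the co-receptor Lrp6 at -0.93 (limma adjusted p = 0.0499). Of 4 genes of the position above the base, Bmi1 was lower at -1.83 and Lrig1 higher at 0.89 (limma adjusted p = 0.00182 and 0.0456). Markers of mature secretory cells were higher in crypts, by a median of 6.25 for 6 Paneth, 4.71 for 5 goblet and 2.32 for 8 enteroendocrine genes. The Paneth sum was 15.63 to 15.82 in crypts and 8.68 in endoderm. The fibroblast sum was 9.48 to 9.66 in crypts and 11.04 in endoderm, and of 6 tested fibroblast genes 1 fell in crypts, the intermediate filament gene Vim at -3.74 (limma adjusted p = 0.000301). The part of these markers in the values of the 8 genes was not tested. The endoderm value of Cd44, 5.17, lay under the dim mark.

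**Figure D3:**
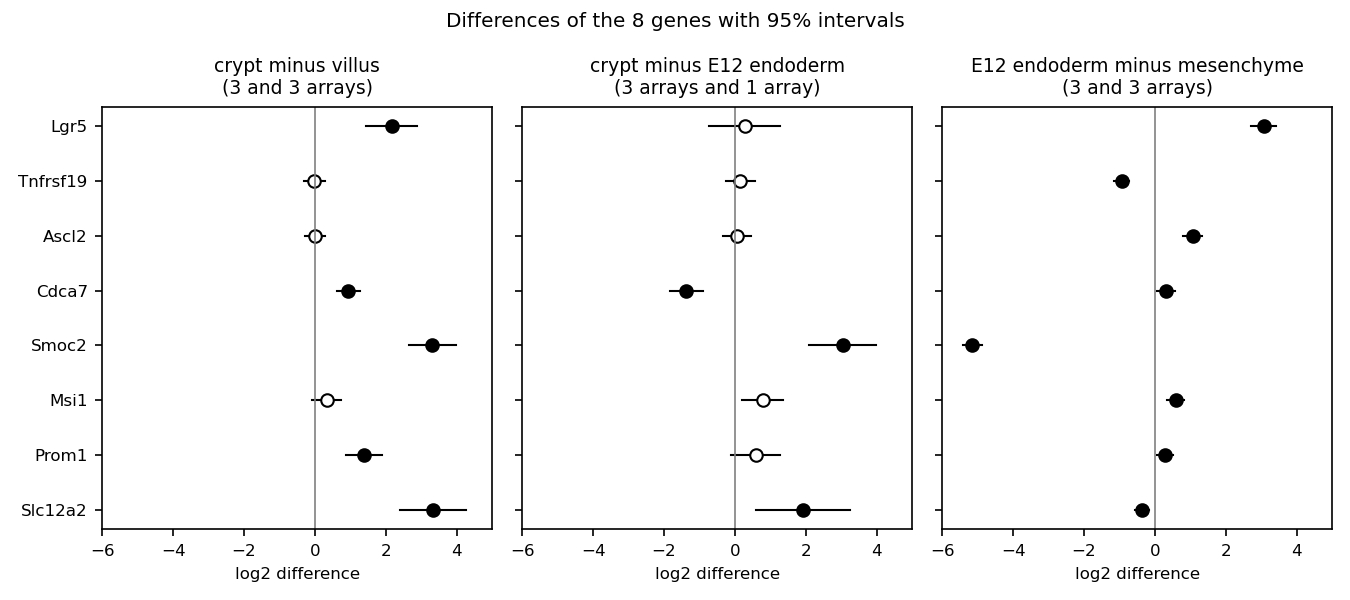
Log2 difference of each of the 8 genes in the 3 comparisons, crypt minus villus, crypt minus E12 endoderm and E12 endoderm minus E12 mesenchyme, with 95% intervals from limma, filled where the adjusted p was under 0.05 and open otherwise. Lgr5 is positive and called against villi (2.17) and in endoderm against mesenchyme (3.07), while Smoc2 is at 3.31 and 3.05 in the crypt comparisons and at -5.15 between the E12 layers.

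The third comparison set E12 endoderm against E12 mesenchyme in the 6-array table, with no array shared with the first 2 comparisons. Lgr5, Ascl2, Msi1, Prom1 and Cdca7 were higher in endoderm, and Smoc2, Tnfrsf19 and Slc12a2 were lower. All 8 genes had groups that did not overlap, against 62% of the genes tested. By limma over 9441 genes, 5 of 8 were called higher, against 27.7% of all genes, and 3 of 8 lower, against 25.4%. Of all genes tested, 53.1% were called in either direction between these layers. The median of the 8 genes was 0.31, against 0.03 for all genes tested. Msi1 and Tnfrsf19 were represented by 1452287_at and 1448147_at here, their brightest probe sets in this table.

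Lgr5 read 7.18, 7.40 and 7.78 in endoderm samples 2, 3 and 4, against 4.34, 4.30 and 4.52 in mesenchyme samples 2, 3 and 4. Every mesenchyme value lay under the dim mark of the table, so Lgr5 passed the filter only through the group where it was high, and its count among the calls is a description. The difference was 3.07 ± 0.15 (SE, n = 3 and 3), or 8.38-fold, with a limma adjusted p of 7.39e-07. The 35-fetus pools of the other table gave 8.54 in endoderm and 6.09 in mesenchyme, a difference of 2.45.

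Smoc2 had the reverse pattern. It read 4.73, 4.47 and 4.90 in endoderm 2, 3 and 4, against 9.88, 9.88 and 9.79 in mesenchyme 2, 3 and 4. Mesenchyme values stood at or above the 90.3 percentile of their arrays and endoderm values at or under the 33.1 percentile. The difference was -5.15 ± 0.12, or 35.5-fold lower in endoderm (limma adjusted p = 1.63e-08), and -3.77 in the 35-fetus pools. The second probe set gave -3.85 (limma adjusted p = 2.6e-06). Its endoderm values, 3.93 to 4.54, all lay under the dim mark of the table. It passed the filter only through the mesenchyme arrays, and its call is a description. On the first probe set, endoderm 4 was the only endoderm array above that mark. In the 8-array table the mesenchyme pool, at 9.69, was above all 3 crypts.

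Tnfrsf19 was 7.03, 6.98 and 7.14 in endoderm 2, 3 and 4, against 8.09, 7.88 and 8.0 in mesenchyme 2, 3 and 4. The layers were apart by -0.94 ± 0.09, or 1.92-fold lower in endoderm (limma adjusted p = 5.75e-05). Its other 2 probe sets differed by -0.44 and -0.32 without passing. Slc12a2 read 9.48, 9.47 and 9.63 in endoderm, against 9.98, 9.84 and 9.85 in mesenchyme. The difference was small, at -0.36 ± 0.09 (limma adjusted p = 0.00988), and both other probe sets were called lower too, at -0.46 and -0.51.

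Ascl2 read 5.86, 5.73 and 6.05 in endoderm 2, 3 and 4, against 4.71, 4.78 and 4.95 in mesenchyme 2, 3 and 4. The probe set that was flat between crypts and villi was higher in endoderm by 1.07 ± 0.11, or 2.09-fold (limma adjusted p = 7.97e-05). The other 2 Ascl2 probe sets were higher by 0.47 and 0.84 in the unfiltered fit (limma adjusted p = 0.00511 and 0.000814). Msi1 read 6.67, 6.35 and 6.43 in endoderm, against 5.94, 5.86 and 5.89 in mesenchyme. Its difference was 0.59 ± 0.10 (limma adjusted p = 0.00167), and the other Msi1 probe set gave 0.35 (limma adjusted p = 0.0538).

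Cdca7 and Prom1 were bright in both layers. Cdca7 read 9.38, 9.46 and 9.53 in endoderm, against 9.29, 8.94 and 9.16 in mesenchyme, a difference of 0.33 ± 0.11 (limma adjusted p = 0.0357). Prom1 read 9.85, 9.67 and 9.60 in endoderm, against 9.41, 9.33 and 9.49 in mesenchyme, a difference of 0.30 ± 0.10 (limma adjusted p = 0.0344). The gaps between the layers were narrow, and both calls were lost when some single arrays were left out. The Cdca7 call was lost without endoderm 3 or 4 or mesenchyme 3 or 4 (adjusted p = 0.0795, 0.113, 0.122 and 0.0834), and the Prom1 call without endoderm 2 or 3 or mesenchyme 2, 3 or 4 (adjusted p = 0.0587, 0.0635, 0.0769, 0.116 and 0.0563). In the 35-fetus pools, where each layer had 1 array, endoderm minus mesenchyme was 0.49 for Cdca7, 0.61 for Prom1, 0.49 for Ascl2, 0.40 for Msi1, -1.48 for Tnfrsf19 and -0.69 for Slc12a2, the same directions as in the 6-array table.

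**Figure D4:**
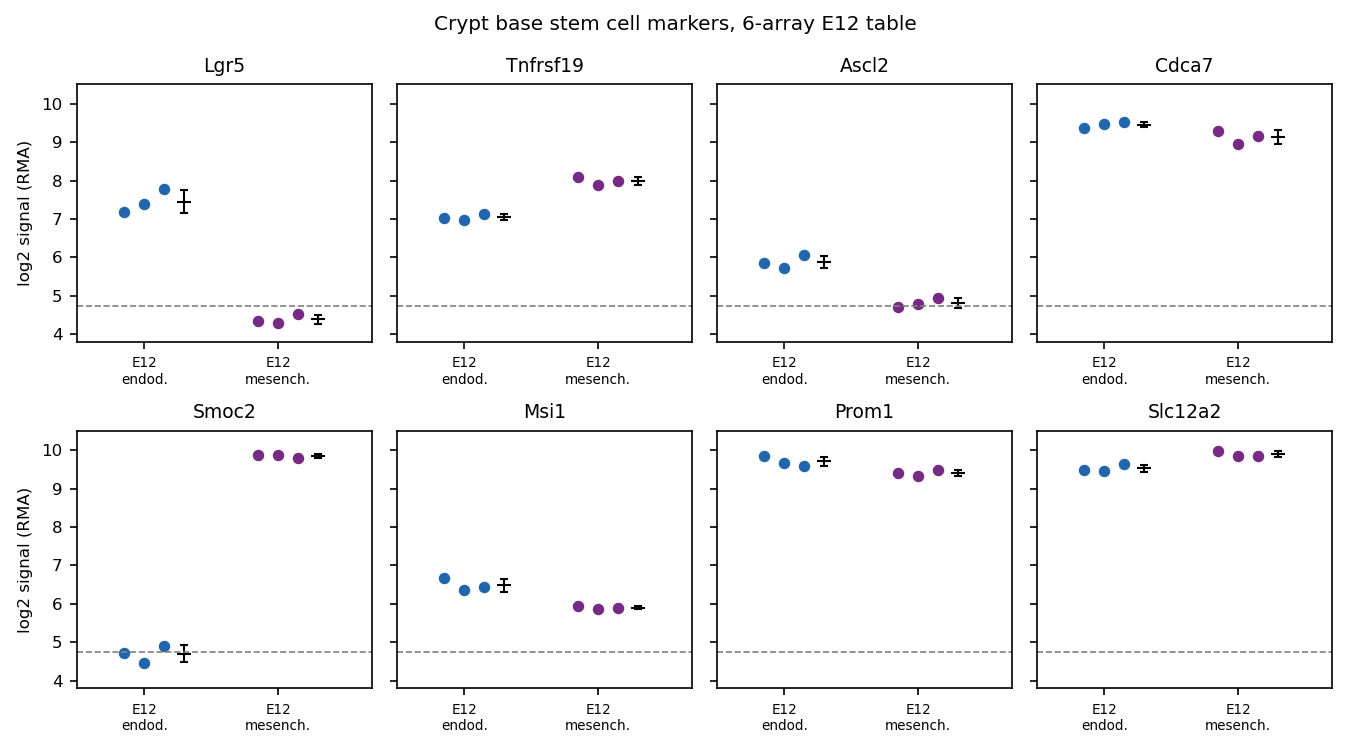
Log2 signal of the brightest probe set of each of the 8 genes in the 6-array table, with 1 point per array in E12 endoderm and E12 mesenchyme, the mean and SD of each layer (n = 3) and a dashed line at the 30th percentile of the table (4.74). Endoderm lies above mesenchyme for Lgr5 and Ascl2 and below it for Smoc2 and Tnfrsf19, and the layers lie close together for Cdca7, Prom1 and Slc12a2.

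Over probe sets, 5 of 14 were higher in endoderm, against 23.7% of all tested, and 6 of 14 were lower, against 22.4%. Among those called, the Lgr5 probe set and 1431362_a_at of Smoc2 passed the filter only through the layer where they were high. Of 6 tested stem cell companions 4 were higher and 2 lower, with Kcne3 at 4.39 and the secreted Fstl1 at -2.35 (limma adjusted p = 7.43e-08 and 2.91e-06). The mesenchyme mean of Kcne3, 4.02 (SD 0.11), lay under the dim mark, so Kcne3 passed the filter only through the endoderm arrays. Of 7 Wnt and R-spondin receptors and regulators 4 were higher and 3 lower. Rnf43, the ligase that removes Wnt receptors, was higher by 3.36 and the ligand Rspo1 lower at -2.53 (limma adjusted p = 3.86e-06 and 3.87e-06). Of 9 Wnt targets 2 were higher and 4 lower, with Sox9 at 3.38 and Cd44 at -2.62. In the layer where they were lower, Rnf43, Rspo1 and Cd44 also had means under the dim mark, of 4.35, 4.51 and 4.02. Hopx was higher by 3.44 and Lrig1 lower at -2.12 among 4 genes of the position above the base.

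Division genes moved little between the layers: 2 of 15 were higher and 1 lower, with a median of 0.12. Markers of other cell types separated the layers widely. Fibroblast markers summed to 10.71 to 11.21 in endoderm and 14.73 to 14.87 in mesenchyme, and Col1a1, a chain of fibrillar collagen, differed by -6.48. Smooth muscle markers were lower in endoderm for 6 of 6 genes, endothelial markers for 6 of 6 and enteric neural crest markers for 5 of 5, the last with sums of 7.35 to 7.54 in endoderm and 10.86 to 11.10 in mesenchyme. Which of these cells carried Smoc2, Tnfrsf19 or Slc12a2 in the mesenchyme was not tested. In adult crypts, where Smoc2 was also high, the fibroblast sum was 9.48 to 9.66, against 9.61 to 9.92 in villi. In both adult groups, 3 of its 9 genes had means under the dim mark. The part of fibroblasts in the Smoc2 signal of crypts was not tested.

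The order of the groups in the 8-array table differed from gene to gene. Lgr5 was highest in crypts, with the endoderm pool inside the crypt range, then villi, with the mesenchyme pool just below them. Slc12a2 ran from crypts through the mesenchyme and endoderm pools to villi, and Prom1 from crypts through the endoderm pool to the mesenchyme pool, which lay inside the villus range. For Cdca7 both E12 pools were above all crypts, and all crypts above all villi. Smoc2 was highest in the mesenchyme pool, then in crypts, with the endoderm pool inside the villus range. For Ascl2 and Tnfrsf19 the adult groups could not be ordered on the brightest probe set. The probe sets of Msi1 gave different orders, with both E12 pools below all adult arrays on 1421409_at and above all of them on 1452287_at. With 1 array for each E12 pool, these positions are descriptions.

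The genes whose signals ran most like each of the 8 were listed by Pearson's r over the 8 arrays, among 10080 other genes. These arrays share 4 groups, so r mostly reads the pattern of the groups. Lgr5 was closest to Hgh1 (r = 0.97), Slc39a8 (0.96) and Xylb (0.95), Smoc2 to G0s2, Ino80e and Rasa3 (0.98 each), and Prom1 to Coq5, Cmc2 and Nans (0.96 each). Slc12a2 was closest to Asph (0.98), D17H6S56E-5 (0.98) and Gtf2ird2 (0.97), and Cdca7 to Auts2, Umps (1.00 each) and Atr (0.99). Ascl2 was closest to Tspan8, Pkp2 and Lgals2 (0.99 each), Tnfrsf19 to Lmo2, Eif4e3 (0.97 each) and Chst1 (0.96), and Msi1 to Doxl1, Trim62 and Cphx3 (0.99 each). The Ascl2 probe set used read 6.79 in the mesenchyme pool and 7.29 to 7.37 in every other array. Its r thus rests mostly on that pool. The 8 genes were not each other's nearest. Prom1 and Slc12a2 had an r of 0.90, Smoc2 and Slc12a2 one of 0.89 and Lgr5 and Prom1 one of 0.80, which placed Prom1 at rank 207 among the genes most like Lgr5.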

How the data were processed

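In 14 samples, RNA extracted on columns with DNase treatment was hybridised to single-colour arrays with a phycoerythrin label, per the labels' protocols. The deposited values are log2 signals, which the authors made with RMA per the submitters' processing notes. RMA subtracts background, puts arrays on 1 scale and combines the probes of a probe set, and small signals are compressed by it. Its version and the build were not given in the sources used here. Because the 2 tables came from different platforms and were normalized separately, each test stayed within 1 table. Arrays give no read depth, and precision is limited by their number. At most 670 of 22690 values were equal in any pair of arrays of a table, so none was a copy.

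Probe sets were named through the platform's gene table: 20380 had 1 symbol, 691 had several and 1606 had none, apart from control probe sets. The RefSeq gene table of GRCm38.p6 held the Entrez identifiers of 20351 of these, and 0 symbols changed. The brightest probe set (by its mean over the arrays fitted) stood for a gene, and genes above the table's 30th percentile in at least 3 arrays were tested. R 4.3.3 with limma 3.58.1 (lmFit, then eBayes) gave the tests, with p-values adjusted by Benjamini-Hochberg within a comparison and calls at an adjusted p under 0.05. Crypts and villi used the 6 adult arrays, and the E12 layers the 6-array table. Crypts against E12 endoderm used a fit of 4 groups over 8 arrays, in which each lone E12 array borrowed the spread of the adult groups. The procedure was tested on simulated data, drawn independently for each array. The lone E12 arrays were given the spread of the adult groups there. That test thus covers neither samples that vary together nor the variation between pools of fetuses in the 8-array table.

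Whether same-numbered samples share an animal is not stated in the labels, so p-values measure only the spread between these samples. Same-numbered E12 samples 2, 3 and 4 deviated together across genes (r = 0.21, 0.23 and 0.11), above a criterion of 0.1, and their numbers come from the titles. Endoderm 3 and mesenchyme 4, which share no number, also exceeded that criterion (r = 0.13). The reported tests of the E12 layers were unpaired, without a block on these numbers. Alternatives changed the dim filter, the normalization, the probe set per gene, the prior, the replicate block and the arrays in the fit.

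The 8 genes and the lists were chosen with earlier results of these data known. Named genes were the 8 genes, the 2 largest called differences of each list (with no call, its largest difference), and the 3 genes most like each of the 8.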

Additional observations from a re-analysis of the deposited data

How the results depend on the processing

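With 3 arrays per group and 1 per E12 pool in the 8-array table, small differences were at the limit of what could be called, and signals near the bottom of the range bound the folds of Smoc2 in villi and endoderm and of Lgr5 in mesenchyme. Between crypts and villi, Lgr5, Slc12a2 and Smoc2 were called under each of 14 alternatives, with adjusted p-values of at most 0.0333. Crypts and villi share the numbers 12 and 41, whose samples deviated together at r = 0.16 and 0.07, so the numbers are not shown to pair them. With a replicate block on them, 3 of the 8 genes were called higher (adjusted p of 0.0559 for Prom1 and 0.0698 for Cdca7), and 424 genes were called higher and 835 lower among all genes, against 1496 and 1686. Leaving out 1 array gave 5 to 6 of the 8 genes higher, and 827 to 1540 higher and 1022 to 1552 lower among all genes, the lowest without K21. Signs turned for Ascl2 (-0.022 by quantile normalization, and -0.0016 to 0.025 when 1 array was left out) and Tnfrsf19 (0.049 with the block, -0.041 to 0.019 when 1 array was left out). They also turned for neighbours with small differences: Eif4e3 (-0.076 by the median of probe sets, -0.017 to 0.13 when 1 array was left out), Pkp2 (-0.066 without probe sets of the s and x types, -0.14 to 0.26), Asph (-0.17 without those probe sets), Lmo2 (0.026 with the block) and Tspan8 (-0.12 to 0.34). For crypts against E12 endoderm, 1 of the 8 genes was higher with no dim filter, and leaving out 1 crypt gave 1 to 2 higher, with 433 to 841 higher and 906 to 1484 lower among all genes, the lowest without K21. The median over probe sets turned Tnfrsf19 (-0.54), Msi1 (-0.094) and Ino80e (-0.21), and leaving out 1 crypt array gave -0.024 to 0.59 for Lgr5 and -0.093 to 0.088 for Xylb. No paired analysis was possible for that comparison because the groups share no numbers. Between the E12 layers, leaving out 1 array gave 2 to 4 of the 8 genes higher (the lowest without endoderm 3) and 3 lower, but without endoderm 2, 3 or 4 Lgr5 no longer passed the dim filter and 7 genes were tested, and the replicate block changed no call among the 8. Smoc2 and Cdca7 kept their calls for crypts against E12 endoderm under each of 10 alternatives. Apart from the construction of these settings, the causes of the changes were not tested.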
